A study of Rattus norvegicus with 24 samples.

Results

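Nicotinic acetylcholine receptors (nAChRs) are the ion channels that nicotine opens, and 7 of their subunit genes were followed here by Ensembl gene ID in 3 brain regions of rats that had self-administered nicotine (NIC). They were Chrna3 (ENSRNOG00000013829), Chrna4 (ENSRNOG00000011202), Chrna5 (ENSRNOG00000013610), Chrna6 (ENSRNOG00000012283), Chrna7 (ENSRNOG00000010853), Chrnb3 (ENSRNOG00000012448) and Chrnb4 (ENSRNOG00000014427). All 7 were among the 17323 genes of the deposited table and were chosen by identity, with earlier results of these data known.

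The 24 libraries came from 8 male F1 rats of the inbred strains F344 and BN, each giving 1 library from the nucleus accumbens (NAc) core, 1 from the NAc shell and 1 from the ventral tegmental area (VTA). In cross A (rats 1, 2, 11 and 15) F344 was the paternal and BN the maternal strain, and in cross B (rats 3, 4, 13 and 16) the strains were exchanged. By the sample labels, rats 1 to 4 were injected with nicotine (0.4 mg/kg) on 4 days and rats 11, 13, 15 and 16 with saline (1.0 ml/kg). All 8 later took intravenous nicotine at 30 µg/kg per infusion, 10 infusions (self-administered and passive together) in each of 6 daily sessions, with tissue taken on day 15. There was no group without intravenous nicotine, so the subunits can be compared between regions, crosses and injections but not with rats that never took the drug. In the NAc the nicotine-injected rats of cross A, those of cross B and the saline-injected rats were prepared in separate batches (E, F and G in the labels), and in the VTA rats 2 and 16 were in a further batch (L). Totals per library were 17563458 to 24405856 estimated counts. Levels are given as CPM, the count scaled to library size after TMM normalization, which makes libraries comparable. CPM takes no account of transcript length, so ratios of one gene's CPM to another's are compared between libraries and do not give their relative amounts. In these tissue pieces, fewer cells of a type and less RNA per cell cannot be told apart.

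An nAChR is a ring of subunits around a cation channel. The α4 subunit (Chrna4) joins β2 (Chrnb2) in the high-affinity brain receptor, α5 (Chrna5) is an accessory subunit of such receptors, and α7 (Chrna7) can form a receptor alone. The α6 and β3 subunits (Chrna6, Chrnb3) are known from dopamine neurons and their terminals, while α3 and β4 (Chrna3, Chrnb4) form the ganglionic type of receptor, known in the brain above all from the medial habenula. Dopamine neurons of the VTA project to the NAc, where receptor protein on their terminals is translated in the VTA cell bodies. Chrna5, Chrna3 and Chrnb4 lie side by side on rat chromosome 8, and Chrna6 and Chrnb3 are neighbours on chromosome 16. Chrna4 lies on chromosome 3, where its annotated span in GRCr8 overlaps that of Col20a1, so that reads of this pair may not be separable, and Chrna7 lies on chromosome 1.

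The chromosome 8 neighbours are shown by the 250 bases before each annotated start (RefSeq, GRCr8). These are reference sequences and do not bear on differences between libraries. Capitals mark the GC box GGGCGG on either strand, and each sequence is written 5′ to 3′ on the strand of its gene. Chrna5 is on the plus strand at chr8:64265629-64265878, Chrna3 on the minus strand at chr8:64311252-64311501 and Chrnb4 on the minus strand at chr8:64333110-64333359.
Chrna5: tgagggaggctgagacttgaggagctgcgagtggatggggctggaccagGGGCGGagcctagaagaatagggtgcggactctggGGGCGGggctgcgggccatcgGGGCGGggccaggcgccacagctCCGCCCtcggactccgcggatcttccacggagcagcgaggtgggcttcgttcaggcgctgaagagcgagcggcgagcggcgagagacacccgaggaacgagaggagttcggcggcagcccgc
Chrna3: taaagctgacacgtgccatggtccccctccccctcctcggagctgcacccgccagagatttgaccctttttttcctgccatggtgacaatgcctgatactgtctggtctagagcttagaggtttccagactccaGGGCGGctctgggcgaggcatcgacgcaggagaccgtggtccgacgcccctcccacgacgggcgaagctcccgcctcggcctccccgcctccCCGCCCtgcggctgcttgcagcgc
Chrnb4: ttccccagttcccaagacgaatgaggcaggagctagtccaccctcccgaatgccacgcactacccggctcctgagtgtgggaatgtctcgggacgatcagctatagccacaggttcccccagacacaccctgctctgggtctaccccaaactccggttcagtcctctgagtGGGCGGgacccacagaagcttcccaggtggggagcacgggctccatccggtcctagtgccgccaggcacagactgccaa
Chrna5 held 4 boxes, which did not overlap, with first bases at -201, -166, -145 and -122 relative to the start. Chrna3 held 2, at -116 and -24, and Chrnb4 held 1, at -79. Of 33469 RefSeq promoters of the same length, 30.5% held at least 1 such box, 14.8% at least 2 and 3.67% at least 4. Sequences were matched for 5 of the 7 genes; the same window held 3 boxes for Chrna4 and 1 for Chrna7. The box letters describe the windows and say nothing of the factors that bind there.

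All 7 subunits had a higher mean level in VTA than in either part of the NAc. Chrna6 passed the filter on low counts through the VTA alone and so had to differ; it is left out of the counts here and described by its counts below. With edgeR's quasi-likelihood test, 6 of the other 6 were called at an adjusted p under 0.05 (Benjamini-Hochberg over 16289 genes) between NAc core and VTA and 6 of 6 between NAc shell and VTA. The background was high, as 61.8% of all tested genes differed between NAc core and VTA (31.1% were higher in VTA) and 59.8% between NAc shell and VTA (30.5% higher in VTA). The median log2 difference of the 6 genes was 2.21 for VTA over NAc core and 2.21 for VTA over NAc shell, against 0.01 and 0.02 for the whole tested table. For 5 of the 6 genes every VTA library lay above every NAc core library, and above every NAc shell library, as did 11.6% and 11.7% of all tested genes. The exception was Chrna5, through the library labelled VTA A replicate 2 described below.

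**Figure D1:**
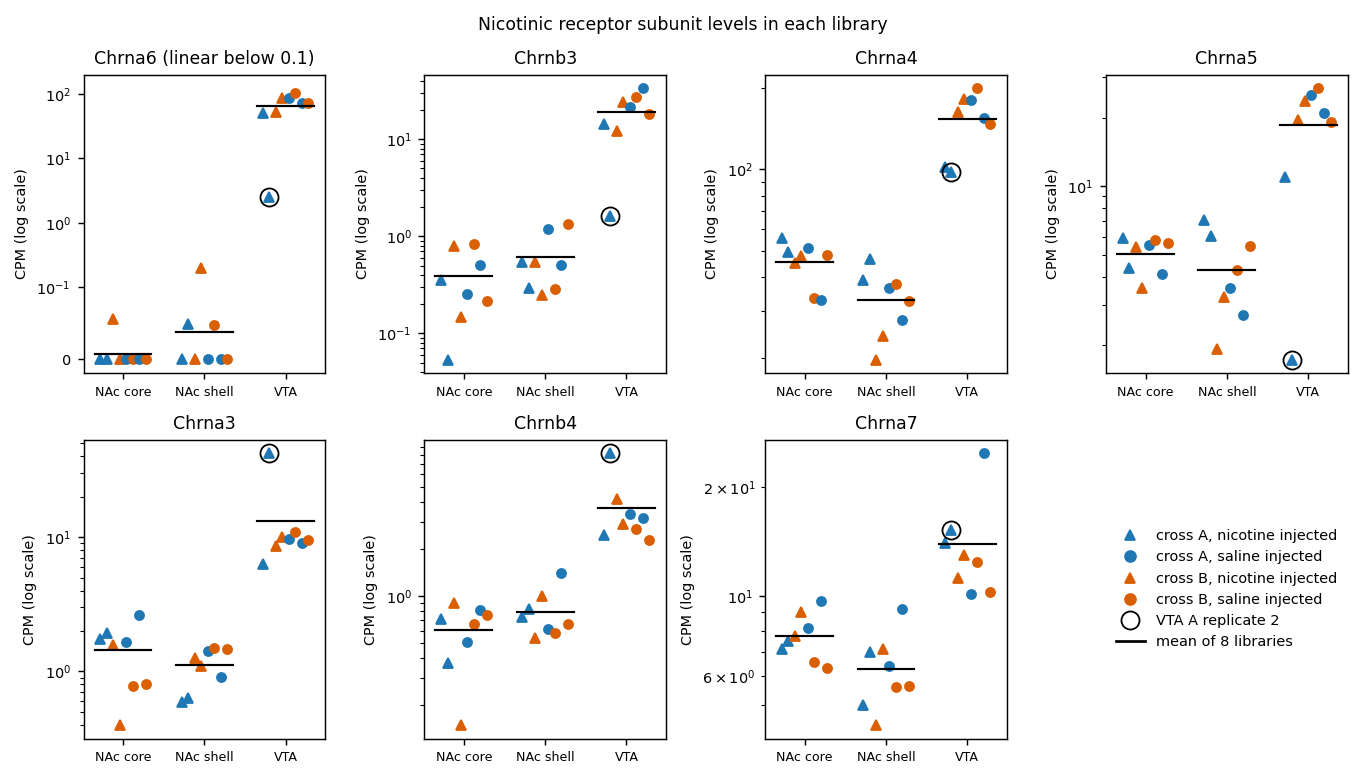
Level of each subunit gene in every library (y axis: CPM on a log scale, linear below 0.1 for Chrna6; x axis: region; colour: cross; shape: injection; line: mean of 8 libraries). VTA libraries lie above the NAc libraries for each gene, except VTA A replicate 2 (ringed) for Chrna5, at 1.72 CPM. For Chrna6 the other 7 VTA libraries hold 50.6 to 103 CPM against at most 0.20 in the NAc. The ringed library lies apart from the other VTA libraries for Chrna6, Chrnb3, Chrna5, Chrna3 and Chrnb4.

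Chrna6 was all but restricted to the VTA. In the NAc core 7 of 8 libraries held 0 counts and rat 3 held 1. In the NAc shell 5 of 8 held 0, rats 2 and 13 held 1 each, and rat 4 held 4. The 8 VTA libraries ranged from 2.56 to 103 CPM with a median of 72.0, and 11436 counts in all. VTA A replicate 2 was the lowest at 2.56 CPM, and the rest held 50.6 to 103. From pooled counts, Chrna6 was 10051 times as high in VTA as in NAc core (95% exact binomial interval 1804 to 397036) and 1866 times as high as in NAc shell (857 to 5086). These intervals treat each count as independent, so they cover counting error only and not the spread between rats. They are a description, since the filter fixed in advance that Chrna6 would differ. No fold is given between core and shell, where the counts were 1 and 6. Of the 16 NAc libraries, 0 exceeded a normalized count of 10, the level set by the filter.

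Chrnb3, the neighbour of Chrna6, showed the same order at a less extreme ratio. In NAc core it ranged from 0.053 to 0.83 CPM (median 0.31), in NAc shell from 0.25 to 1.32 (median 0.52) and in VTA from 1.61 to 33.5 (median 19.6). The 7 VTA libraries other than VTA A replicate 2 lay between 12.0 and 33.5 CPM. The log2 difference was 5.57 ± 0.54 (SE) for VTA over NAc core (adjusted p 9.98e-08) and 4.94 ± 0.50 for VTA over NAc shell (adjusted p 2.15e-07), with 8 libraries per region. Unlike Chrna6, every NAc library held at least 1 count of Chrnb3. Core and shell overlapped and did not pass the test (0.64 ± 0.48 for shell over core, adjusted p 0.426).

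Chrna3 and Chrnb4, the α3β4 pair, were also several-fold higher in VTA. Chrna3 ranged from 0.40 to 2.64 CPM in NAc core (median 1.62), from 0.59 to 1.49 in NAc shell (median 1.18) and from 6.27 to 42.0 in VTA (median 9.62). Its highest value was VTA A replicate 2, and the remaining 7 held 6.27 to 10.9. VTA exceeded NAc core by 3.18 ± 0.43 on the log2 scale (adjusted p 5.21e-06) and NAc shell by 3.57 ± 0.39 (adjusted p 5.15e-07). Without VTA A replicate 2 these were 2.65 ± 0.28 and 3.06 ± 0.20. Chrnb4 was near the limit of detection in the NAc, with 3 to 16 counts in core libraries (0.15 to 0.90 CPM, median 0.69) and 12 to 28 in shell libraries (0.54 to 1.40 CPM, median 0.70). In VTA it held 46 to 147 counts (2.29 to 8.18 CPM, median 3.04), again highest in VTA A replicate 2. The log2 difference was 2.56 ± 0.33 for VTA over core (adjusted p 2.97e-06) and 2.19 ± 0.28 for VTA over shell (adjusted p 3.81e-06), or 2.28 ± 0.27 and 1.93 ± 0.22 without that library.

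Chrna4 and Chrna5 had a clear level in all regions. Chrna4 ranged from 32.8 to 55.9 CPM in NAc core (median 48.0), from 19.7 to 46.7 in NAc shell (median 34.4) and from 97.5 to 200.0 in VTA (median 159). VTA exceeded core by 1.74 ± 0.15 (adjusted p 2.94e-08) and shell by 2.22 ± 0.18 (adjusted p 1.65e-08) on the log2 scale. Chrna5 ranged from 3.58 to 5.92 CPM in NAc core (median 5.45) and from 1.92 to 7.13 in NAc shell (median 3.93). In VTA 7 libraries lay between 11.0 and 26.9 CPM and VTA A replicate 2 at 1.72, below every NAc library. Its log2 difference was 1.86 ± 0.34 for VTA over core (adjusted p 0.000143) and 2.11 ± 0.39 for VTA over shell (adjusted p 0.000147), or 2.04 ± 0.17 and 2.30 ± 0.24 without that library.

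Chrna7 was the subunit gene with the smallest difference between VTA and either part of the NAc. It ranged from 6.31 to 9.70 CPM in NAc core (median 7.61), from 4.39 to 9.17 in NAc shell (median 6.03) and from 10.1 to 24.8 in VTA (median 12.7). The VTA value of rat 15 stood at 24.8 CPM, 2.10 times the median of the 6 VTA libraries left when VTA A replicate 2 is also set aside. VTA exceeded core by 0.82 ± 0.17 (adjusted p 0.000384) and shell by 1.141 ± 0.19 (adjusted p 4.59e-05) on the log2 scale. Of the sum of its 3 region means, 49.7% was in VTA, against 66.2% for Chrna4, 66.4% for Chrna5, 72.2% for Chrnb4, 83.9% for Chrna3, 94.95% for Chrnb3 and 99.9% for Chrna6.

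**Figure D2:**
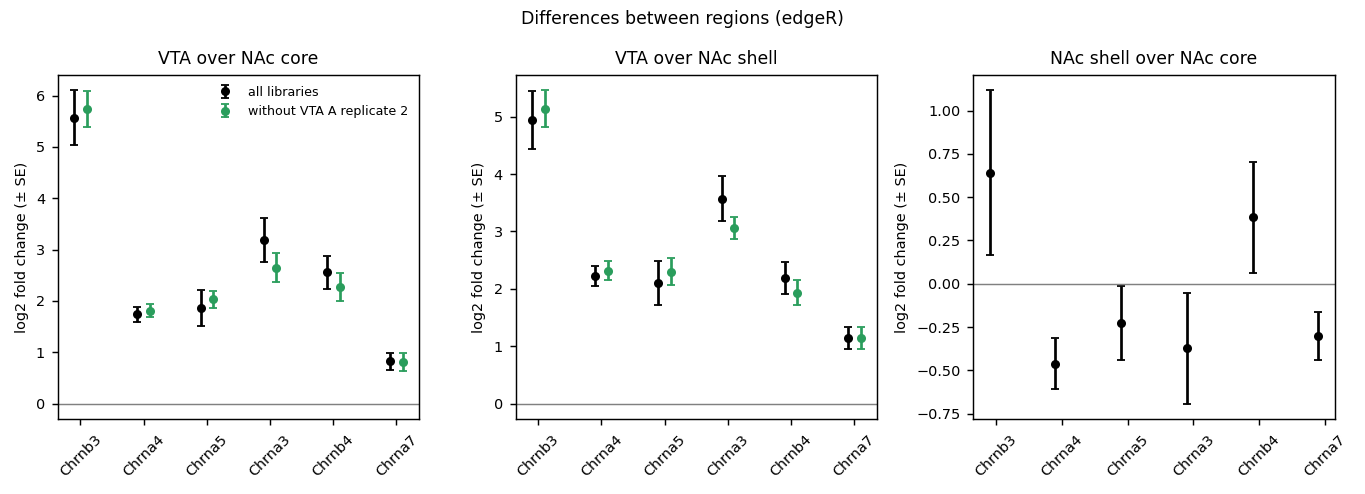
Log2 fold change between regions with its standard error for 6 subunit genes, from edgeR on all libraries (black) and without VTA A replicate 2 (green); Chrna6 is left out because its NAc counts were at or near 0. VTA was higher for each gene, from 0.82 for Chrna7 to 5.57 for Chrnb3 over NAc core, and the shell differed from the core at the adjusted threshold for Chrna4 alone among these 6.

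Between the 2 parts of the NAc, 1 of the 6 subunit genes other than Chrna6 was called. Of all tested genes, 15.1% differed and 7.88% were higher in core. Chrna4 was lower in shell than in core by a log2 value of -0.46 ± 0.15 (adjusted p 0.0369), and was higher in core in 7 of 8 rats, although the ranges over rats overlapped. The call did not hold without rat 1, 3, 4, 11 or 16, where the log2 value was -0.46 to -0.38 and the adjusted p 0.0674 to 0.110. Chrna7 was higher in core in 8 of 8 rats (log2 -0.30 ± 0.14 for shell over core, p 0.0395), but did not pass after adjustment (adjusted p 0.156). Chrna3 (-0.37 ± 0.32), Chrna5 (-0.22 ± 0.21) and Chrnb4 (0.38 ± 0.32) did not pass the test (adjusted p 0.490 to 0.555). In order of mean level, VTA therefore stood above both NAc parts for all 7 genes. Core and shell were neighbours in that order, with ranges that overlapped for each gene, and Chrna4 alone passed the adjusted test between them.

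VTA A replicate 2, the VTA library of rat 2, stood apart from the other 7 VTA libraries in a pattern that differed by subunit. Against the median of the other 7, it held 3.52% of their Chrna6, 7.58% of their Chrnb3, 8.26% of their Chrna5 and 59.8% of their Chrna4. In the same library Chrna3 was 4.40-fold and Chrnb4 2.81-fold their median, and Chrna7 1.23-fold. Chrna3, Chrnb4 and Chrna5 lie side by side on chromosome 8, and Chrna5 moved opposite to its neighbours here. This library also held few dopamine neuron transcripts. Slc6a3, the dopamine transporter, was at 20.9 CPM against 702 to 1312 in the other 7, and the 6 dopamine neuron markers with an ID summed to 77.2 CPM against 1125 to 2041, though 0 of the 6 was at 0. The same sum was 35.8 to 91.9 CPM in NAc core libraries and 21.6 to 26.4 in NAc shell libraries. Slc6a3 was at most 0.80 CPM in any NAc library, and Chrna6 had 1 and 6 counts in all in core and shell. Slc17a6, the vesicular glutamate transporter of many midbrain and thalamic neurons, was at 204 CPM against 81.5 to 161. The 4 muscarinic receptor genes summed to 95.9 CPM against 24.1 to 41.1. Astrocyte markers summed to 2065 CPM against 3415 to 4643, microglia markers to 189 against 276 to 367 and oligodendrocyte markers to 22622 against 25508 to 50563. Midbrain GABA neuron markers, at 50.7 CPM against 39.9 to 65.9, lay within the range of the other 7. Choroid plexus markers were high in this library and in VTA A replicate 1, with 5 markers summing to 2688 and 15588 CPM against 6.56 to 10.9 in the other 6. VTA A replicate 1 held the lowest Chrna6, Chrna4, Chrna5 and Chrna3 of the 7. The part of dissection, cell make-up or preparation in these values was not tested.

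**Figure D3:**
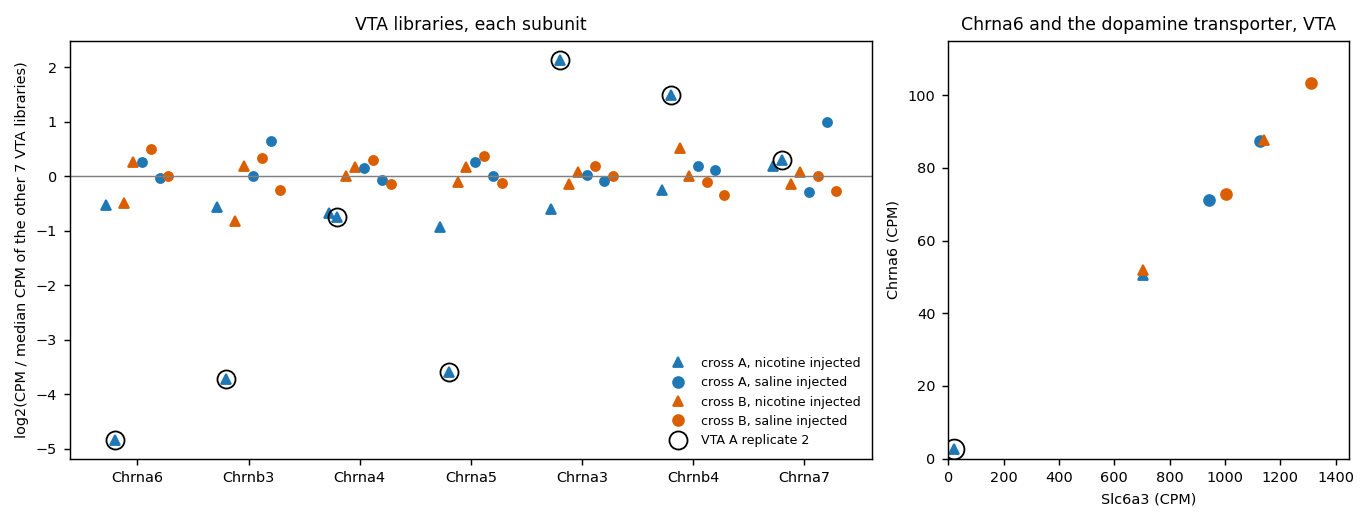
Left, each VTA library's subunit level as the log2 ratio to the median of the 7 VTA libraries other than VTA A replicate 2 (ringed); right, Chrna6 against Slc6a3, both in CPM, for the 8 VTA libraries. The ringed library is at 3.52% of the median for Chrna6 and 4.40-fold for Chrna3, and Chrna6 follows Slc6a3 from 50.6 to 103 CPM in the other 7.

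Within the other 7 VTA libraries, Chrna6 followed Slc6a3 closely. There were 7.20 to 7.89 CPM of Chrna6 for every 100 CPM of Slc6a3, and 12.2 in VTA A replicate 2. As a description over 7 libraries of the same region, Pearson's r of log2 CPM between Chrna6 and Slc6a3 was 0.997. With the other subunits, r of Chrna6 was 0.86 for Chrna3, 0.83 for Chrna5, 0.79 for Chrna4, 0.74 for Chrnb3, -0.11 for Chrna7 and -0.20 for Chrnb4. With Slc18a2, the vesicular monoamine transporter, r of Chrna6 was 0.91. It was 0.80 for Ddc, the decarboxylase that makes dopamine, and 0.80 for the transcription factor gene Pitx3. Nr4a2 and Lmx1a, the other dopamine neuron genes with an ID, were not included in these correlations. The other subunits followed these markers unequally. With Slc18a2, r was 0.98 for Chrna3, 0.95 for Chrna5, 0.94 for Chrna4, 0.53 for Chrnb3, 0.040 for Chrnb4 and -0.30 for Chrna7. With Pitx3 it was 0.51, 0.50, 0.50, 0.38, -0.30 and -0.40 in the same order, and with Ddc 0.84, 0.80, 0.82, 0.22, -0.010 and -0.64. With Slc6a3 it was 0.85, 0.81, 0.76, 0.74, -0.25 and -0.12, so Chrna3, Chrna5 and Chrna4 came nearest to Slc18a2 among the 4 markers. Chrna4, Chrna5 and Chrna3 also varied together over the same 7 libraries, with r of 0.99 between Chrna4 and Chrna5, 0.95 between Chrna4 and Chrna3 and 0.97 between Chrna5 and Chrna3. Including VTA A replicate 2 turned these correlations of Chrna3 negative, to -0.83 with Chrna5, -0.40 with Chrna4, -0.88 with Chrna6 and -0.91 with Slc18a2. Over the 7 libraries r of Chrnb4 was 0.38 with Chrna4, 0.32 with Chrna5 and 0.13 with Chrna3, and r of Chrna7 was -0.19, -0.14 and -0.20 with the same genes. The ratio of Chrna5 to Chrna4 was 10.8 to 13.9 per 100 in the 7 libraries and 1.77 in VTA A replicate 2.

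Over all 24 libraries, the genes whose log2 CPM was most like that of a member were mostly genes that also separated VTA from NAc. For Chrna6 these were Foxa2 (r of 0.998), a transcription factor of midbrain dopamine neurons, En2 (0.99) and a gene with no symbol paired to its ID. For Chrnb3 the named gene among the first 3 was Kank4 (0.96), for Chrna4 Me1 (0.97), for Chrna3 Sox14 (0.93) and for Chrnb4 Syt9 (0.92). For Chrna5 they included Atp2a3 (0.92) and Enpp6 (0.90), and for Chrna7 Slc24a3 (0.90) and Btrc (0.90). The first 3 genes stayed the first 3 without VTA A replicate 2 for Chrna6, Chrnb3 and Chrna4, whereas for Chrna5, Chrna3 and Chrnb4 the first 3 fell to ranks 25 to 161. These likenesses were taken over all regions together, not within a region, and are given without a test.

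The other genes of the cholinergic system did not share one order of regions. Their lists were restricted to genes with an ID in the study's tables, some of which were there because of a difference in these same samples. Chrnb2, the β2 partner of α4 and one such gene, averaged 14.5 ± 4.30 CPM in core (SD, n = 8), 15.5 ± 2.75 CPM in shell and 24.1 ± 4.26 CPM in VTA, and VTA exceeded core by 0.71 ± 0.16 on the log2 scale (adjusted p 0.000858). Chrna1, the muscle-type α1 gene, did not pass the test in any pair of regions. Of 4 genes for making, loading, recapturing or breaking down acetylcholine, 3 were lower and 1 was higher in VTA than in core at an adjusted p under 0.05, with a median log2 difference of -1.85. The lower ones were Chat, the enzyme that makes acetylcholine (-2.40 ± 0.55), the vesicular transporter Slc18a3 (-3.18 ± 0.62) and the choline transporter Slc5a7 (-1.30 ± 0.24). The same 3 were higher in shell than in core, by 1.08 ± 0.20, 1.17 ± 0.21 and 0.95 ± 0.18, all past the same threshold. Of 6 receptor chaperone or Ly6 modulator genes, 2 were higher in VTA than core (Ric3 by 0.30 ± 0.08, Lynx1 by 0.46 ± 0.07) and 3 lower (Lypd1, Lypd6 and Ly6h). Of 4 muscarinic receptor genes, Chrm2 was higher in VTA than in core (1.96 ± 0.43) and Chrm1, Chrm3 and Chrm4 were lower than in core. Against shell, 1 of the 4 was called higher in VTA and 2 lower. Of the cell markers, 9 of 9 striatal projection neuron genes were lower in VTA than in core (8 of 9 than in shell). Higher in VTA than in core were 7 of 7 oligodendrocyte, 3 of 3 midbrain GABA neuron and 5 of 5 choroid plexus genes, the last high in 2 VTA libraries. Of the dopamine neuron genes, 5 of 6 were higher in VTA than in core and 1, Nr4a2, was lower, with a median log2 difference of 6.82. Against shell, 6 of 6 were higher in VTA (median 5.88). The other lists were mixed or moved less against core. There 3 of 5 astrocyte genes were higher and 2 lower, 1 of 2 glutamate neuron genes higher and 1 lower, and 1 of 4 microglia genes higher.

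The comparison of crosses asked whether expression differed between the reciprocal crosses, which exchange the paternal and maternal strains. In the paper, cross A was also the subgroup more inclined to self-administer nicotine, and cross B was not. Cross and inclination to self-administer therefore cannot be told apart here. No subunit gene was called between the crosses, with 0 of 6 in core, 0 of 6 in shell and 0 of 7 in VTA by edgeR and by DESeq2. The background was as thin, since edgeR called 0.0184% of tested genes in core (3 genes, with 1524 under an unadjusted p of 0.05). It called 0.00614% in shell (1 gene, with 652) and 0% in VTA (0 genes, with 929). DESeq2 called 60, 5 and 6 genes. Of 19 tests of a subunit between crosses, 1 had an unadjusted p under 0.05.

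That 1 was Chrna3 in NAc core. Cross A held 1.73, 1.92, 1.67 and 2.64 CPM (rats 1, 2, 11 and 15) and cross B 1.57, 0.40, 0.78 and 0.81 CPM (rats 3, 4, 13 and 16). Every cross A library was above every cross B library, as was so for no other subunit in any region; ranges failed to overlap for 5.4% of the table in core, 2.54% in shell and 3.27% in VTA. The log2 difference was 1.17 ± 0.40 (p 0.0121), but the adjusted p was 0.447, and the counts behind it were 29 to 52 in cross A and 8 to 28 in cross B. Among the saline-injected rats alone, which shared 1 preparation batch, it was 1.43 ± 0.48 (adjusted p 0.561). In NAc shell Chrna3 pointed the other way, with 0.59, 0.63, 1.41 and 0.90 CPM in cross A and 1.25, 1.11, 1.49 and 1.47 CPM in cross B (log2 -0.60 ± 0.35, adjusted p 0.995). The difference between core and shell in the cross difference was -1.75 ± 0.53 (p 0.00382, adjusted p 1).

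The remaining differences between crosses in the NAc were within the spread of the rats. In core they were -0.73 ± 0.74 for Chrnb3, 0.12 ± 0.15 for Chrna4, -0.03 ± 0.20 for Chrna5, -0.03 ± 0.55 for Chrnb4 and 0.13 ± 0.16 for Chrna7, on the log2 scale as A over B. In shell they were 0.07 ± 0.61 for Chrnb3, 0.38 ± 0.19 for Chrna4, 0.38 ± 0.35 for Chrna5, 0.35 ± 0.41 for Chrnb4 and 0.27 ± 0.21 for Chrna7. Among saline-injected rats alone the shell values of Chrna4 and Chrna5 had the opposite sign, at -0.13 ± 0.16 and -0.62 ± 0.31. Chrna6 had too few counts in the NAc for a comparison of crosses.

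In VTA the cross differences moved with single libraries. With all 8 libraries they were 0.77 ± 0.55 for Chrna3, 0.51 ± 0.39 for Chrnb4, 0.46 ± 0.25 for Chrna7, -0.18 ± 0.66 for Chrnb3, -0.36 ± 0.21 for Chrna4, -0.56 ± 0.72 for Chrna6 and -0.59 ± 0.60 for Chrna5 (adjusted p 0.812 to 0.970). Without rat 2 Chrna3 was at -0.22 ± 0.18, Chrna5 at -0.22 ± 0.27, Chrna6 at -0.17 ± 0.25 and Chrnb3 at 0.20 ± 0.34, with smaller errors. Chrnb4 was then at -0.0034 ± 0.26 and Chrna4 at -0.24 ± 0.19. Chrna7 was at 0.49 ± 0.27 without rat 2, but at 0.17 ± 0.17 without rat 15, whose VTA library held the most of it. Chrna6 was at 50.6, 2.56, 87.5 and 71.2 CPM in cross A and at 51.9, 87.6, 103 and 72.8 CPM in cross B, so that outside rat 2 the crosses spanned similar ranges.

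**Figure D4:**
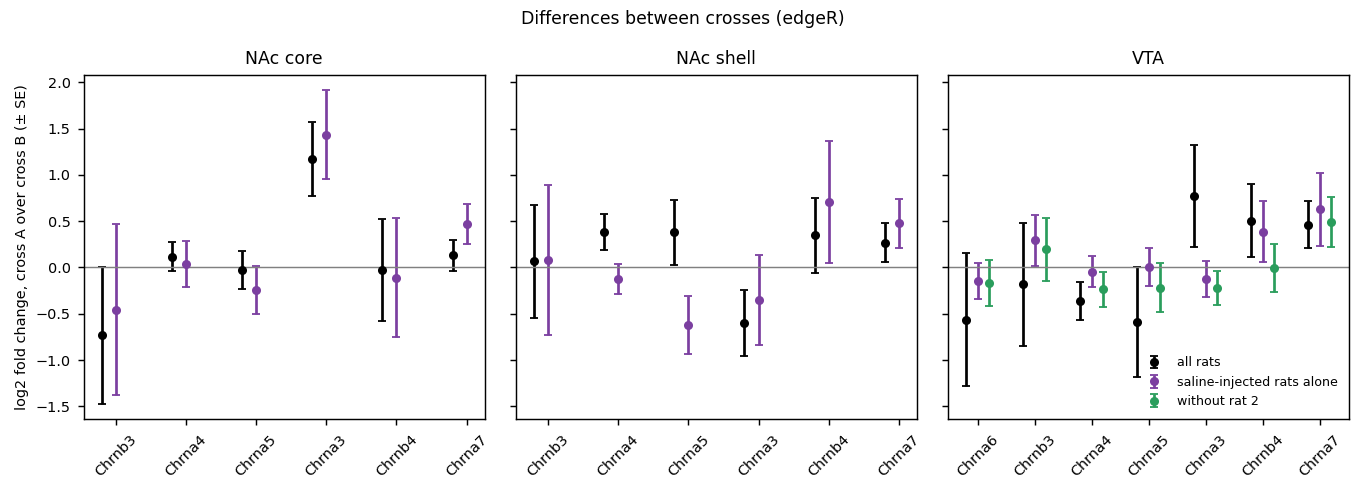
Log2 fold change of cross A over cross B with its standard error, by region, for all rats (black), saline-injected rats alone (purple) and, in VTA, without rat 2 (green). No value passed the adjusted threshold, Chrna3 in NAc core (1.17 ± 0.40) lies farthest from 0 among the NAc values of all rats, and the VTA values draw toward 0 for Chrna3, Chrna5 and Chrna6 without rat 2.

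Between nicotine-injected and saline-injected rats no subunit gene was called in any region, with 0 of 6, 0 of 6 and 0 of 7 by edgeR and by DESeq2, and 0 of 19 tests had an unadjusted p under 0.05. The background by edgeR was 0% of the table in core, 0% in shell and 0% in VTA (1041, 481 and 331 genes had an unadjusted p under 0.05), and DESeq2 called 3, 4 and 4 genes. Log2 differences of nicotine over saline ranged from -0.43 to 0.26 in core, from -0.99 to 0.20 in shell and from -0.94 to 0.75 in VTA. The highest VTA value was that of Chrna3 and rested on VTA A replicate 2, since without rat 2 it was -0.25 ± 0.18 and the 7 subunits ranged from -0.58 to 0.12 (0 called). The widest was that of Chrnb3 in shell, at 0.25 to 0.55 CPM in nicotine-injected and 0.29 to 1.32 CPM in saline-injected rats (-0.99 ± 0.55, p 0.0949). Injection and preparation batch cannot be told apart in these libraries, apart from rats 2 and 16 in VTA.

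In NAc shell both nicotine-injected rats of cross A held more Chrna4 and Chrna5, the α4 gene and its accessory partner, than both of cross B, an order that the saline-injected rats did not share. Chrna4 was at 38.9 and 46.7 CPM in nicotine-injected cross A (rats 1 and 2) and 19.7 and 24.2 CPM in nicotine-injected cross B (rats 3 and 4). In saline-injected rats it was at 36.3 and 27.7 CPM in cross A (rats 11 and 15) and 37.7 and 32.4 CPM in cross B (rats 13 and 16), so that the crosses overlapped. Both nicotine-injected rats of cross A were thus above all others, and both of cross B below, as was so for 0.767% of the table. Chrna5 was at 7.13 and 6.05 CPM in nicotine-injected cross A, 1.92 and 3.27 CPM in nicotine-injected cross B, 3.58 and 2.71 CPM in saline-injected cross A and 4.29 and 5.44 CPM in saline-injected cross B. Here too both nicotine-injected rats of cross A were above the other 6, as for 5% of the table, and saline-injected rats had the reverse order, with both of cross B above both of cross A. The interaction was 1.08 ± 0.23 on the log2 scale for Chrna4 (p 0.000814, adjusted p 0.108) and 1.96 ± 0.45 for Chrna5 (p 0.00127, adjusted p 0.134) by edgeR, so neither passed the adjusted threshold. DESeq2 called both (adjusted p 0.00290 and 0.0205), as it called 225 genes in all, where edgeR called 57, 0.35% of those tested (1208 had an unadjusted p under 0.05). The edgeR count over the table was 1 to 134 genes when 1 rat was left out, with 1 without rat 1, 3 without rat 4, 5 without rat 16, 6 without rat 2 and 134 without rat 11. Over the alternatives the adjusted p ranged from 0.00290 to 0.412 for Chrna4 and from 0.0205 to 0.551 for Chrna5. Each combination held 2 rats, and the nicotine-injected rats of cross A and of cross B were in different batches, so the interaction and the batch cannot be told apart. The 4 genes of acetylcholine handling summed in shell to 37.8 and 42.1 CPM in nicotine-injected cross A, 61.8 and 93.5 in nicotine-injected cross B, 72.6 and 83.2 in saline-injected cross A and 39.2 and 67.9 in saline-injected cross B, so both nicotine-injected rats of cross A, the highest for Chrna5, were among the lowest 3. The 3 midbrain GABA neuron markers, low in the NAc, had the order of Chrna4. Their sum was 19.5 and 18.0 CPM in nicotine-injected cross A, 13.8 and 14.6 in nicotine-injected cross B and 14.6 to 17.7 in saline-injected rats. This was the only list of several summed with that order. The margins were small, at 18.05 against 17.72 CPM (rats 2 and 11) and 14.57 against 14.64 CPM (rats 4 and 15). The striatal projection neuron markers summed to 1994 to 3345 CPM, without setting any combination apart. The part of these genes in the interaction was not tested.

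**Figure D5:**
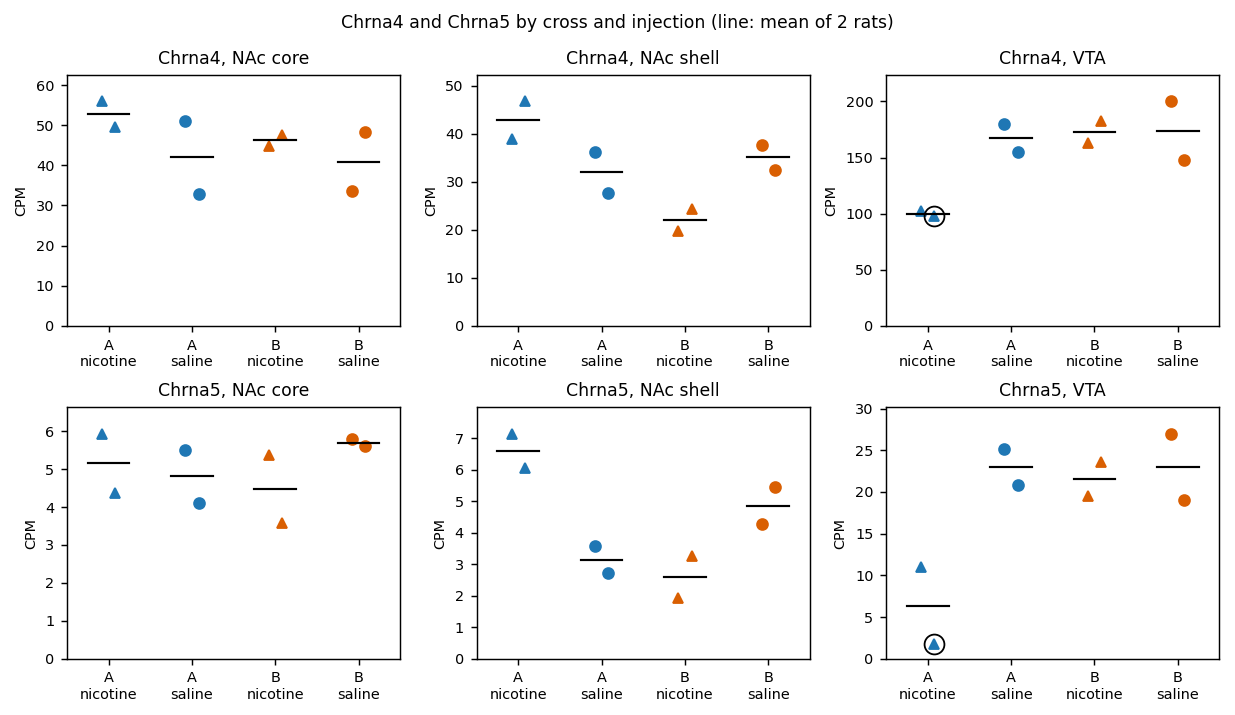
Chrna4 (top) and Chrna5 (bottom) in CPM by cross and injection in the 3 regions, 2 rats per combination (line: mean; ring: VTA A replicate 2). In NAc shell the nicotine-injected rats of cross A are highest for both genes (38.9 and 46.7 CPM of Chrna4); those of cross B are lowest for Chrna4 (19.7 and 24.2), while for Chrna5 (1.92 and 3.27) a saline-injected cross A rat at 2.71 lies between them.

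Elsewhere the interaction of cross and injection reached an unadjusted p under 0.05 for Chrna7 in NAc core (-0.67 ± 0.28, p 0.0377, adjusted p 0.836) and for Chrna4 in VTA (-0.73 ± 0.24, p 0.0191, adjusted p 0.895). In VTA both nicotine-injected rats of cross A held the lowest Chrna4, at 102 and 97.5 CPM against 147 to 200.0 in the other 6, and these were the 2 libraries with choroid plexus transcripts. The background for this interaction was 0.00614% of tested genes in NAc core (1 gene) and 0% in VTA (878 genes at an unadjusted p under 0.05), with 17 and 79 genes by DESeq2. The values of the subunits not named lay between -1.74 and 1.498 on the log2 scale over the 3 regions. The limits were Chrna5 and Chrna3 in VTA. Without rat 2, rat 1, the other library with choroid plexus transcripts, alone stands for nicotine-injected cross A. Chrna3 was then at -0.44 ± 0.31 and Chrna5 at -0.97 ± 0.35, and all 7 subunits were negative, from -0.97 to -0.31.

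The cross difference was also compared between regions, and 0 of 6 subunits were called for any pair of regions by edgeR or DESeq2. By edgeR the background was 0% between core and shell, 0% between core and VTA and 0% between shell and VTA (357, 1490 and 951 genes had an unadjusted p under 0.05), while DESeq2 called 2, 24 and 3 genes. Besides Chrna3 between core and shell, Chrna4 between shell and VTA had an unadjusted p under 0.05 (-0.75 ± 0.31, p 0.0286, adjusted p 0.824), which was -0.63 ± 0.30 (p 0.0563) without VTA A replicate 2. Without that library the cross difference of Chrna3 in VTA less that in core was -1.39 ± 0.42 (p 0.00461, adjusted p 0.430), against -0.39 ± 0.73 with it.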

How the data were processed

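RNA from NAc core, NAc shell and VTA of 8 rats was sequenced by the authors. The 24 columns of deposited estimated counts had, per the labels and the study's methods, been made with fastp 0.20.0, Salmon 0.12.0 against Rnor version 6 and tximport, as whole numbers without normalization. Salmon shares out reads that fit several transcripts, so genes of like sequence can exchange counts; whether strand was used is not given in the sources used here. Region abbreviations were read as core and shell from the study's methods.

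A gene was tested if its median-ratio normalized count passed 10 in 3 or more of 24 libraries (16289 of 17323, with 99.98% of counts); depth was 17563458 to 24405856 counts per library. Tests were run in edgeR (4.0.16, R 4.3.3) by quasi-likelihood with TMM, on the 8 libraries of a region or the 16 of 2 regions, two-sided, with Benjamini-Hochberg adjustment over all tested genes. The SE was the log2 fold change over the square root of F. CPM used TMM library sizes, and correlations log2 CPM with a prior count of 2. DESeq2 1.42.0 was an alternative, beside other size factors (RLE), other filters, covariates, saline-injected rats alone, each rat left out and rat as a replicate block. The fits were also run on simulated counts with known changes, and the outcome is not given here.

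The 7 members, the 57 further genes and the tests were chosen with earlier results of these data known. All 7 members are given in each comparison of regions and crosses, except that Chrna6 is left out between NAc core and shell and between crosses in the NAc, and in other comparisons those with an unadjusted p under 0.05. Another 8 genes of these lists had no ID paired in the sources and were not analysed here. The promoter sequences are from RefSeq. Each rat gave all 3 regions, so same-numbered libraries are paired by rat; the correlation of their deviations from group means was -0.11 to 0.18 and over 0.1 in 1, 1 and 2 of the 8 rats for the 3 pairs of regions. Over 36 pairs of libraries within groups, chi-square over degrees of freedom was 5.41 to 134, so no library was counted as a copy.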

Additional observations from a re-analysis of the deposited data

Results flagged for a closer look

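The library labelled VTA A replicate 2 lay far from the other 3 libraries of its group for a pair of subunit genes. Its Chrna3 level was 42.0 CPM, against 6.27 to 9.70 CPM in the others, and its Chrnb4 level was 8.18 CPM, against 2.44 to 3.33 CPM. The gap to the nearest library was 0.904 and 0.846 of the group's range, above Dixon's 95% critical value for 4 samples. Over the 44 groups of 4 examined, 2 such values were found, and chance alone gives about 1 in 20. For Chrna6, Chrnb3 and Chrna5 the same library was the lowest of its group, but the other 3 libraries spread too far for the gap to pass. The part of tissue composition in these values was not tested.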

How the results depend on the processing

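The 6 subunits other than Chrna6 stayed higher in VTA than in either NAc part, past the adjusted threshold, under each alternative run, also with rat as a replicate block (6 of 6 for both pairs) and without VTA A replicate 2, a choice made after seeing the data. The replicate block changed no call, and with it Chrna4 was lower in shell by -0.48 (adjusted p 0.0140). Between NAc core and shell, the count of called subunits was 0 to 1 when 1 rat was left out. Between crosses and between injections it was 0 throughout. For cross by injection in NAc shell it was 2 with DESeq2 and 0 to 1 when 1 rat was left out (1 without rat 11, where 134 of 16289 genes were called against 57 with all rats and 1 to 36 when another rat was left out). In VTA it was 0 to 3 when 1 rat was left out, 3 without rat 1, where rat 2 alone stands for nicotine-injected cross A and 137 of 16289 genes were called against 0 with all rats (Chrna3 2.30, Chrna5 -3.64, Chrna6 -4.61 on the log2 scale); the lone library is assumed to vary like the other groups. Some cross differences, none past the threshold, changed sign. With preparation batch as a covariate, Chrna4 and Chrna5 in shell were at -0.14 and -0.63. Among saline-injected rats alone they were at -0.13 and -0.62, and in VTA Chrna3 was at -0.13, Chrna5 at 0.0048 and Chrnb3 at 0.29. With 1 rat left out, Chrna5 in core ranged from -0.17 to 0.044, Chrnb4 in core from -0.36 to 0.21, Chrnb3 in shell from -0.42 to 0.78, and in VTA Chrna3 from -0.22 to 1.04, Chrnb3 from -0.69 to 0.20 and Chrnb4 from -0.0034 to 0.70. Over all alternatives the VTA cross differences ranged from -2.15 to -0.15 for Chrna6, from -1.53 to 0.0048 for Chrna5 and from -1.37 to 0.29 for Chrnb3. The causes were not tested. With 4 libraries per cross, Chrnb4 and Chrnb3 in the NAc rest on 1 to 28 counts per library, and the SE of their cross differences was 0.41 to 0.74 on the log2 scale.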
